A study of Mus musculus with 18 samples.

Results

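Collagens are the triple-helical proteins of the extracellular matrix, and their genes were read here across every library of the series. The members are the genes whose name is Col, a number, the letter a and a second number. That rule found 44 of the 39179 genes in the deposited count tables. No expression value entered the rule, though it was chosen with earlier results of these data known. They were grouped by the assembly their proteins form: 11 fibrillar, 9 network-forming, 6 beaded-filament and 18 other collagens. Of the 44, 25 had enough counts to be tested and 19 did not.

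The libraries come from MC38, a mouse cell line that the labels derive from a colon adenocarcinoma of C57BL6 mice, in an APC-intact form and a form with Apc deleted. For each form there were 3 libraries of untreated cells, 3 of cells given 1 µM doxycycline for 24 h and 3 of cells given it for 48 h, which makes 6 groups. All cells grew in DMEM with serum approved for tetracycline systems, and doxycycline was given to induce a hairpin against Tdo2, which encodes the dioxygenase that opens tryptophan breakdown. The series asked what loss of that enzyme does with and without APC, a tumour suppressor that restrains Wnt signalling.

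Several features of the samples bear on every value below. The titles name the hairpin in the treated libraries only, whereas the protocol speaks of hairpin cells with and without doxycycline, so whether untreated cells carried it is not settled. No treated group lacked the hairpin, so doxycycline and the hairpin cannot be told apart. How Apc was deleted, and whether that line is 1 clone, is not given in the sources used here. The labels speak of biological triplicates without naming separate cultures, so a p-value here speaks of the variation among the libraries of a group, part or all of which may be technical. The names of the deposited tables carry a designation read here as 2 sequencing runs of 9 libraries. On that reading both untreated groups and the APC-intact 24 h group lay in the first run, and the other 3 groups in the second. Comparisons of the lines untreated and at 48 h, and of 24 h with untreated APC-intact cells, lay within 1 run. For the other comparisons with untreated cells, and between the lines at 24 h, run and group cannot be told apart.

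A library held between 71970499 and 111948430 gene counts, and 3 counts were worth 0.0268 to 0.0417 CPM (counts relative to the library's gene counts, scaled with edgeR's TMM factors). Whole-gene Apc counts averaged 112 ± 14.1 CPM in untreated APC-intact and 75.2 ± 3.77 CPM in untreated APC-deleted cells (SD, n = 3), but a count over the whole gene does not check a deletion within it. Tdo2 lay between 0.0623 and 0.308 CPM in all libraries, and none of the 4 comparisons of treated with untreated cells called it (edgeR adjusted p 0.494 to 0.856). The 10 epithelial markers listed for the check of the tissue label summed to 1.83 to 5.40 CPM per library, with Cdx2 at 0 in every library and Epcam at 0 throughout 4 of the 6 groups. The 11 fibroblast markers other than collagens summed to 4809 to 6073 CPM. Endothelial markers summed to 3.05 to 6.36 CPM, and haematopoietic ones to 9.50 to 22.9 CPM, nearly all of it Cd68. The tissue label names an epithelial tumour as the source. Most epithelial markers were at or near 0, so they did not show an epithelial state in these cells, and the origin of the line was not tested. Of the 11 fibroblast markers, 6 reached 1 CPM in 5 of the groups and 7 in untreated APC-deleted cells. Vim, Sparc, Fn1 and Dcn were high among them, and Thy1, Acta2, Postn and Fap stayed under 1 CPM in every group mean. APC-intact 24 h replicate 1 and APC-deleted 48 h replicate 2 stood apart from their groups on principal components 3 and 4, so counts of called genes are also given without both.

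As background, a collagen molecule is a trimer of alpha chains, from the same or different genes, wound around one another along glycine-rich repeats. Fibrillar collagens of types I, III and V pack into the banded fibrils that give connective tissue its strength. Type IV collagen makes the sheet-like network of basement membranes, type VIII a related lattice, and type VI forms beaded filaments around cells. The remaining collagens decorate fibril surfaces, anchor epithelia, span membranes or carry large sugar chains. In colon tumours most interstitial collagen is known to come from fibroblasts, while many mesenchymal cell lines make their own.

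The abundant collagens were those of types I, III, IV, V, VI and VIII, while 19 members, among them the main cartilage collagen and the type IV chains Col4a3 and Col4a4, had hardly any counts. Among fibrillar genes 8 of 11 were tested, among network genes 5 of 9, among beaded-filament genes 4 of 6 and among the others 8 of 18. At least 5 CPM in 1 or more groups was reached by 7 fibrillar, 4 network, 3 beaded-filament and 5 other genes, 19 in all. All 19 untested members had between 1 and 87 counts over the 18 libraries together, and the highest group mean among them was 0.0971 CPM. They were below the filter on low counts and no change in them was tested. Col2a1, the main collagen of cartilage, had 25 counts in all, its partner Col11a1 had 45 and Col27a1 had 2. Of the untested network chains, Col4a3 had 64 counts (17, 13 and 22 in the APC-intact groups and 2, 3 and 7 in the APC-deleted ones, named after its values were seen and not tested) and Col4a4 had 26, while Col4a6 had 87 and Col8a2 had 21. Col6a5 had 24 counts and Col6a6 had 3. Among fibril-associated collagens Col9a2 had 11 counts, Col22a1 had 5, Col19a1 had 3 and Col9a1 had 1. Of the transmembrane collagens Col23a1 had 20 counts and Col13a1 and Col25a1 had 1 each. Col28a1 had 71 counts, Col15a1 had 69 and Col26a1 had 2. A further 6 tested genes stayed under 5 CPM: Col9a3 averaged 1.15 to 2.36 CPM over the groups, and Col24a1, Col6a4, Col14a1, Col17a1 and Col10a1 stayed under 1 CPM in every group mean.

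Collagens took 0.582% ± 0.0197 of all gene counts in untreated APC-intact cells and 0.681% ± 0.0358 in untreated APC-deleted cells (SD, n = 3). After 24 h the shares were 0.511% ± 0.0159 and 0.588% ± 0.00753, and after 48 h 0.486% ± 0.00613 and 0.576% ± 0.0127. The share was thus higher in the APC-deleted line at each time (at 24 h across runs), with no overlap of libraries. In both lines every treated library lay below every untreated one. The share follows the most abundant members, among them Col1a1, at 652 CPM in untreated APC-intact and 1221 CPM in untreated APC-deleted cells. Over the 25 tested members the median log2 fold change between the untreated lines was -0.034. In bulk RNA, fewer cells of a type and less RNA per cell cannot be told apart.

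Levels of different genes were set side by side as CPM per kilobase of the exon length in the deposited tables. The order rests on those lengths, which were 12088 bases for Col1a2 and 6511 for Col1a1. Before division by length, Col1a2 averaged 944 CPM in untreated APC-intact cells, above Col1a1 at 652 and Col4a1 at 639 CPM. In untreated APC-intact cells Col3a1 led at 127 ± 3.7 CPM per kilobase (SD, n = 3), above Col1a1 at 100.1 ± 7.4 and Col4a1 at 94.4 ± 4.4, which did not differ beyond their spread. Next came Col1a2 at 78.1 ± 3.4 CPM per kilobase, Col5a2 at 69.1 ± 1.3 and Col4a2 at 64.8 ± 5.5, the last pair again within their spread. Col8a1 at 49.3 ± 0.82 and Col6a1 at 47.1 ± 1.6 CPM per kilobase were likewise close. After 24 and 48 h of doxycycline Col4a1 stood first in APC-intact cells, at 94.6 ± 4.1 and 93.9 ± 3.1 CPM per kilobase, with Col3a1 down to 87.7 ± 5.8 and 79.2 ± 1.2. Col1a1 was next at 92.6 ± 4.6 and 86.6 ± 3.2 CPM per kilobase, within the spread of Col4a1 at 24 h. APC-deleted cells had Col1a1 first in each condition, at 188 ± 6.5 CPM per kilobase untreated, 165 ± 2.5 at 24 h and 167 ± 8.5 at 48 h. The 12 leading genes, down to Col4a5, Col18a1 and Col6a2, were the same in all 6 groups, though their order differed.

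**Figure D1:**
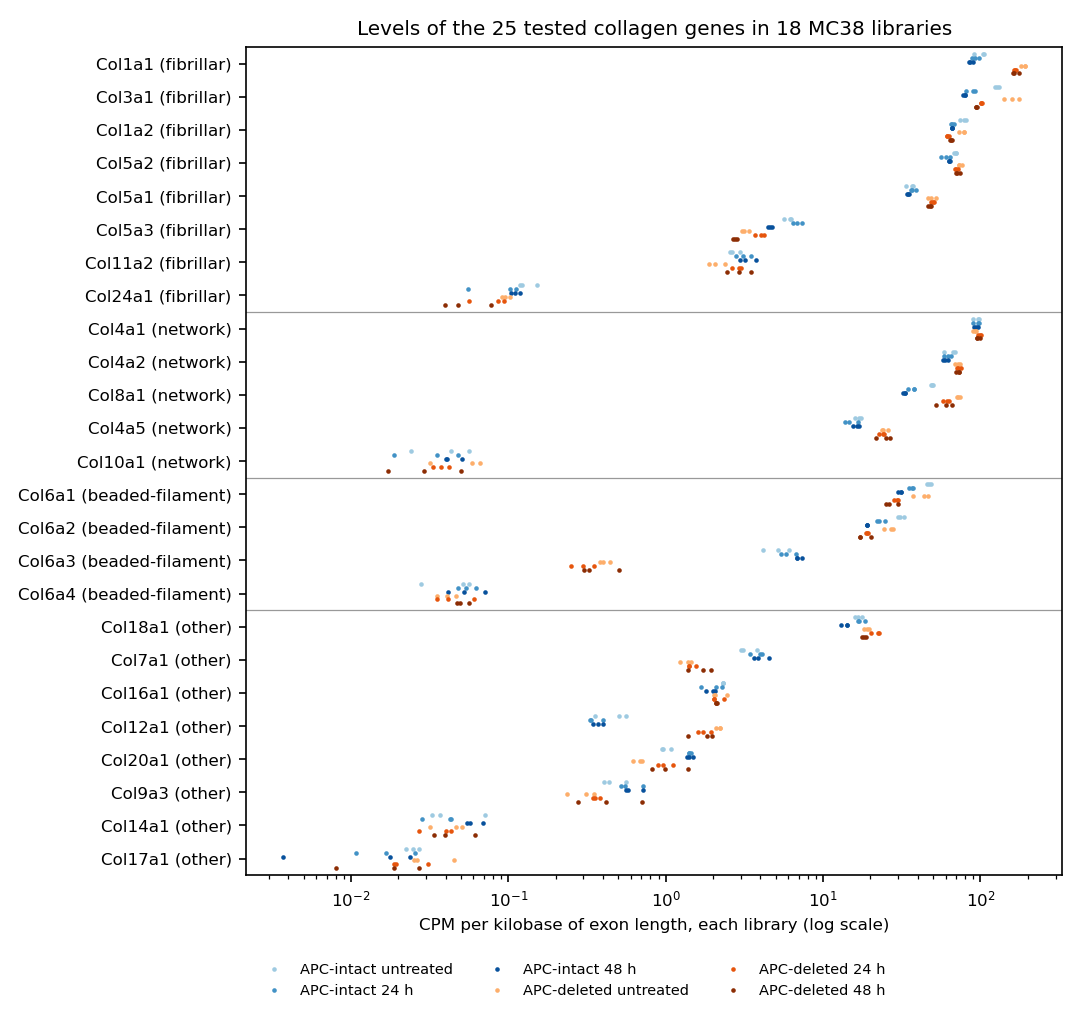
CPM per kilobase of exon length (log axis) of the 25 tested collagen genes, by class, with 1 point per library and a colour per group (n = 3). Types I, III, IV, V, VI and VIII lie at the right, and Col6a3, Col12a1 and Col7a1 split by line, with blue APC-intact and orange APC-deleted points apart.

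The lines differed in many collagens, and by much more in a few of them. In APC-deleted cells the fibrillar chains Col1a1, Col3a1 and Col5a1, the network chains Col4a5 and Col8a1, the fibril-associated Col12a1 and the multiplexin Col18a1 were higher, untreated and at both times. The beaded-filament chain Col6a3, the fibrillar chain Col5a3, the anchoring-fibril collagen Col7a1 and the fibril-associated Col20a1 were lower in all 3 comparisons. The share of all tested genes called alike in all 3 was not counted. The widest gap was in Col6a3, at 61.4 ± 11.7 CPM in untreated APC-intact and 4.86 ± 0.353 CPM in untreated APC-deleted cells (SD, n = 3). Col12a1 went the other way, from 7.19 ± 1.64 to 32.9 ± 0.940 CPM. Among tested members, 7 were called higher and 6 lower in untreated APC-deleted cells (edgeR's quasi-likelihood test, Benjamini-Hochberg adjusted p under 0.05), where 13.4% and 13.8% of all 15006 tested genes were. At 48 h 9 were higher and 6 lower, against 17.8% and 16.8% of all genes. At 24 h, across runs, 9 were higher and 7 lower, against 16.0% and 15.1%. The median log2 fold changes over the 25 tested members were -0.034 untreated, 0.060 at 24 h and -0.024 at 48 h, beside -0.0044, -0.0073 and -0.00046 over all tested genes. In either direction 13, 16 and 15 members were called untreated, at 24 h and at 48 h, beside 27.3%, 31.2% and 34.7% of all tested genes. Without both libraries that stood apart these counts were 16, 16 and 18. Members were not matched to other genes on level, so these counts say nothing particular to collagens. Some markers differed between the lines in all 3 comparisons. In APC-deleted cells Pdgfra, Pdgfrb and Lum of the fibroblast list, Cd68 and the epithelial Krt8 were called higher. Vim and the endothelial Cdh5 were called lower. Krt19 and Vil1, also epithelial, went the other way from Krt8: Krt19 was called lower untreated and at 48 h, and Vil1 at 48 h. The median log2 fold change over the 4 tested epithelial markers was -0.63 untreated, -0.48 at 24 h and -1.03 at 48 h. Pdgfra averaged 142 ± 4.87 CPM in untreated APC-intact and 215 ± 4.76 CPM in untreated APC-deleted cells, and Vim 2364 ± 33.7 and 2041 ± 71.8 CPM (SD, n = 3). The part of these markers in the collagen differences was not tested.

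**Figure D2:**
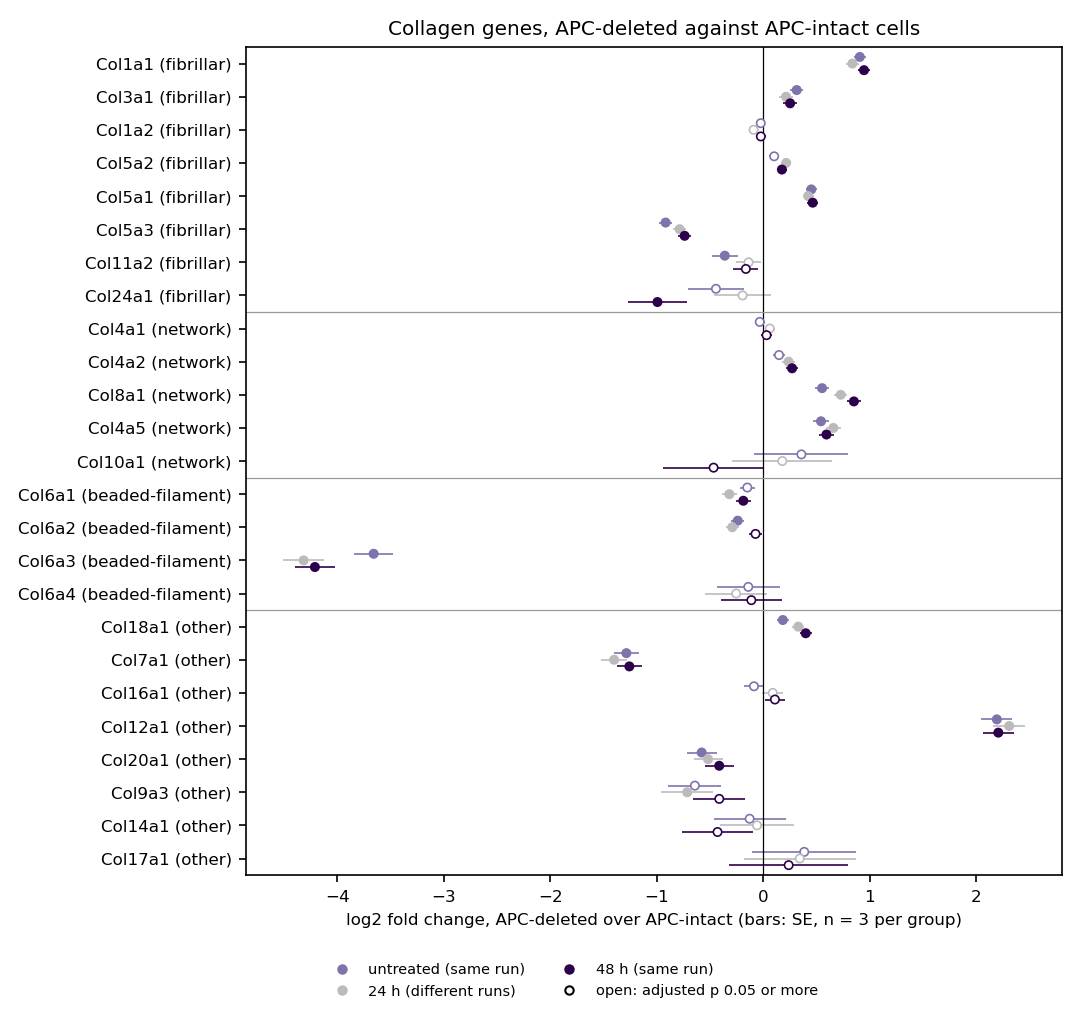
Log2 fold change of APC-deleted over APC-intact cells for the 25 tested collagen genes, by class, with SE bars (n = 3 per group) and filled points for edgeR adjusted p under 0.05. Col6a3 lies between -3.66 and -4.32 and Col12a1 between 2.19 and 2.31, while Col1a2, Col4a1 and Col16a1 stay near 0.

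Doxycycline in the hairpin cells went with lower levels of 5 collagen genes in both lines. Only the 24 h comparison in APC-intact cells lay within 1 run, and in the others, among them both of the APC-deleted line, run and treatment cannot be told apart. Col3a1, Col1a2, Col6a1, Col6a2 and Col8a1 fell in all 4 comparisons with untreated cells, and Col20a1 rose in all 4. Col3a1 went from 1059.5 ± 31.0 CPM to 659.5 ± 10.2 CPM at 48 h in APC-intact cells and from 1316 ± 143 to 785 ± 8.55 CPM in APC-deleted cells (SD, n = 3). Of the 25 tested members, 14 were called in none of the 4 comparisons, among them the basement membrane chains Col4a1, Col4a2 and Col4a5. The share of all tested genes called in all 4, or in none, was not counted. These joint counts therefore say nothing particular to collagens. Within 1 run, at 24 h in APC-intact cells, 6 members fell and 1 rose, where 4.25% of all tested genes fell and 1.39% rose. At 48 h in APC-intact cells 8 fell and 1 rose, against 7.54% and 3.81%. In APC-deleted cells 5 fell and 4 rose at 24 h, against 3.77% and 2.08%, and 6 fell and 2 rose at 48 h, against 6.49% and 4.52%. In either direction that made 7, 9, 9 and 8 members, beside 5.64%, 11.3%, 5.85% and 11.0% of all tested genes, and 8, 11, 10 and 8 without both libraries that stood apart. The 9 calls at 24 h in APC-deleted cells came down to 5 without APC-deleted untreated replicate 2 or without APC-deleted 24 h replicate 3, and the 8 at 48 h came down to 4 in a fit of those 6 libraries alone. The median log2 fold changes over the 25 tested members were -0.16, -0.13, -0.083 and -0.057 in that order, beside -0.0043, 0.00050, -0.0020 and -0.0011 over all tested genes. Within each line the 24 and 48 h comparisons share their untreated libraries, so they are not independent of each other.

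**Figure D3:**
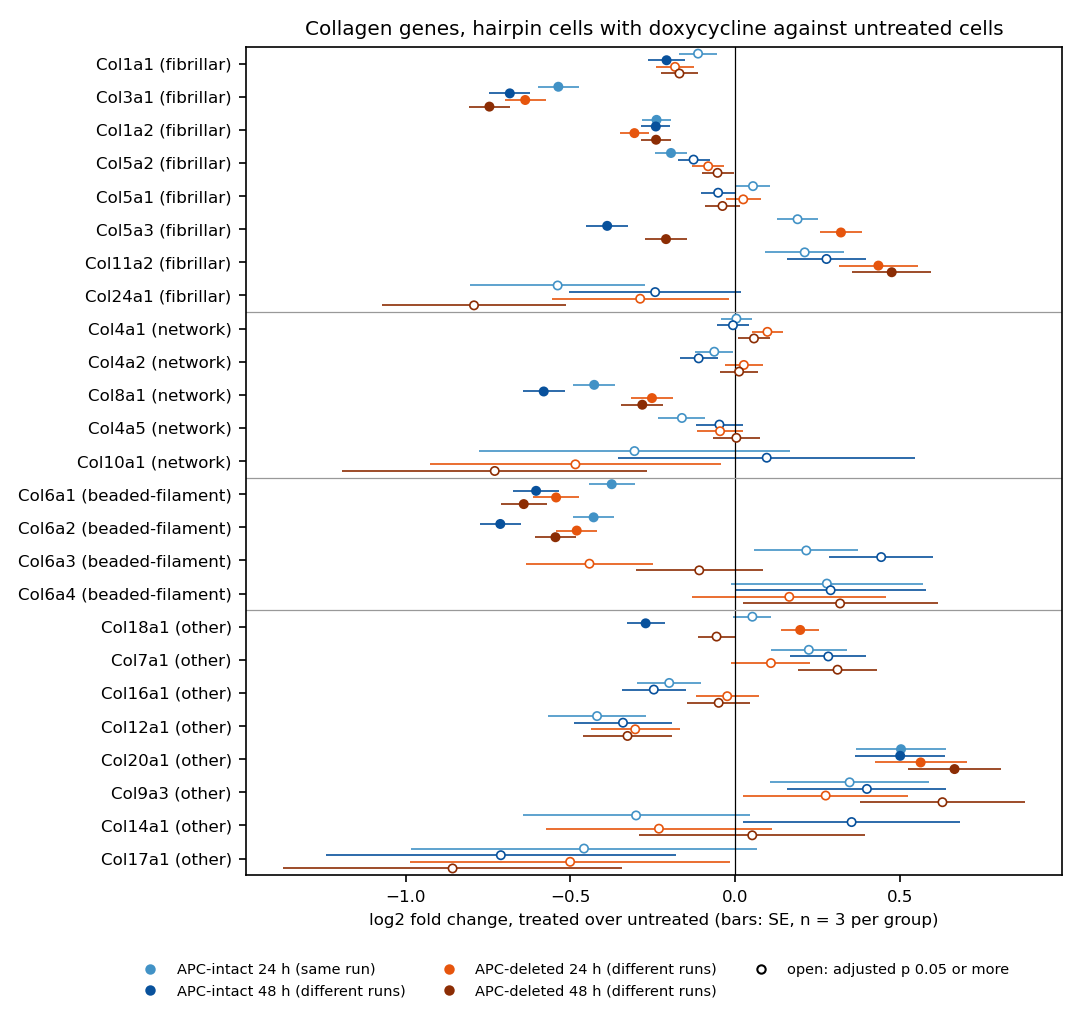
Log2 fold change of doxycycline-treated over untreated cells for the 25 tested collagen genes, by class and by line and time, with SE bars (n = 3 per group) and filled points for edgeR adjusted p under 0.05. Col3a1, Col6a1, Col6a2 and Col8a1 lie left of 0 in all 4 comparisons, and Col5a3 changes side between 24 and 48 h.

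Markers moved alongside these falls. Of the 11 fibroblast markers, 10 were tested, and Sparc, Dcn and Lum fell in all 4 comparisons, with 4 and 5 markers called lower in APC-intact cells after 24 and 48 h and 5 and 3 in APC-deleted cells. Of all tested genes 4.25% and 7.54% fell in APC-intact and 3.77% and 6.49% in APC-deleted cells. The 11 markers summed to 5841 to 6073 CPM in untreated APC-intact libraries against 5173 to 5337 CPM in treated ones. In the APC-deleted line the sums were 5654 to 5814 against 4809 to 5288 CPM. Of the defining markers, Thy1 was at 0 throughout 5 of the 6 groups. The sum of haematopoietic markers was 13.99 to 16.5 CPM untreated and 9.50 to 10.9 CPM treated in APC-intact cells, and 17.9 to 22.9 CPM against 12.9 to 18.3 CPM in APC-deleted cells. Krt8, an epithelial keratin, and Cd68 were called lower in all 4 comparisons. Sox9 was called higher in all 4, and no other gene of the 5 cartilage markers had enough counts to be tested. The part of these markers in the collagen values was not tested.

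The stretches of genome just before 5 of these genes are shown because their genes carry the 2 patterns: Col3a1, Col6a2 and Col8a1 fell with treatment in all 4 comparisons, and Col6a3 and Col7a1 were lower in APC-deleted cells in all 3. Each is the 250 bases before the gene's start from RefSeq on GRCm38.p6, given 5′ to 3′ on the gene's strand: chr1:45311288-45311537 (plus) for Col3a1, chr10:76623631-76623880 (minus) for Col6a2, chr16:57754738-57754987 (minus) for Col8a1, chr1:90843972-90844221 (minus) for Col6a3 and chr9:108953336-108953585 (plus) for Col7a1. None of these windows overlapped an annotated exon. Capitals mark matches on either strand to the TATA box (searched as TATAAA), the CCAAT box (searched as CCAAT), the GC box (searched as GGGCGG), the AP-1 motif (searched as TGANTCA) and a TCF/LEF motif (searched as CTTTGAT), and no match overlapped a match to another motif.
Col3a1: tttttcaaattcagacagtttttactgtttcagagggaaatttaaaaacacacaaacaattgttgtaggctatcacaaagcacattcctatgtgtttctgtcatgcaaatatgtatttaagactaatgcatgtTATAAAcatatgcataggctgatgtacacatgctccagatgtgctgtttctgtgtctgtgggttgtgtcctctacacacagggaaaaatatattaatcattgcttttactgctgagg
Col6a2: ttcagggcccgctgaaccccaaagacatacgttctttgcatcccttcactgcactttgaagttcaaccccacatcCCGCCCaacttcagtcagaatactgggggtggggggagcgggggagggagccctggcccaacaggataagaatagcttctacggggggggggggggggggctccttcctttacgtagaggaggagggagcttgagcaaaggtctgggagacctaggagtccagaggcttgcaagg
Col8a1: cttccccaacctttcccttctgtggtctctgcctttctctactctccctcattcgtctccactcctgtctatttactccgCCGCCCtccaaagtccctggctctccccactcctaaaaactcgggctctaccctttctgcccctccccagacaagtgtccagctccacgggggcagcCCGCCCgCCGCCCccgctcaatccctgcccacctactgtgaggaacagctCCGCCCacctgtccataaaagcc
Col6a3: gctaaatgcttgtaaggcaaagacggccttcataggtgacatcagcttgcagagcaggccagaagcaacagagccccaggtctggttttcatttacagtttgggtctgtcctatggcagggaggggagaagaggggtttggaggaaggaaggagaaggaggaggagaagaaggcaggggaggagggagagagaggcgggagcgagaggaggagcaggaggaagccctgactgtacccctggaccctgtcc
Col7a1: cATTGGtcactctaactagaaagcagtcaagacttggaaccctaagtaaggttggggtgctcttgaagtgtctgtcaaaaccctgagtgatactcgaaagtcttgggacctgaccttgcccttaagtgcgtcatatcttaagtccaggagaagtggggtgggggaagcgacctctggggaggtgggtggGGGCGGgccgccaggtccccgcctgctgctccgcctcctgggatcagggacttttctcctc

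In these windows Col3a1 held 1 TATA box match, at -117 from the start, Col6a2 held 1 GC box match and Col8a1 held 4. Col7a1 held 1 GC box match at -61 and 1 CCAAT box match at -249. Col6a3 held none of the 5 motifs, and the AP-1 and TCF/LEF letters were in none of the 5 windows. The window of Col6a1, which also fell in all 4 comparisons and is not shown, held 1 AP-1 match at -90 from the start, and that of Col1a2 held 1 CCAAT box and 2 GC box matches. Both of those windows overlap an annotated exon of their own gene. RefSeq gives Col6a2 a second start, whose window at chr10:76623405-76623654 overlaps a Col6a2 exon and held 3 GC box matches. Over all 32851 RefSeq windows of this length, the TATA box was found in 12.4%, the CCAAT box in 33.8%, the GC box in 32.7%, the AP-1 motif in 6.75% and the TCF/LEF motif in 3.21%. GC content was 35.2% in the Col3a1 window and 56.4% to 60.8% in the other 4. RefSeq windows were at hand for 35 of the 44 members.

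By class, 3 of the 8 tested fibrillar genes were higher and 2 lower in untreated APC-deleted cells, and 4 were higher and 2 lower at 48 h. Of all tested genes 13.4% were higher and 13.8% lower in the first of these comparisons, and 17.8% and 16.8% in the second. With treatment none rose in APC-intact cells, where 3 fell after 24 h and 4 after 48 h, beside falls of 4.25% and 7.54% of all tested genes. In APC-deleted cells 2 fell and 2 rose at 24 h, beside 3.77% and 2.08% of all tested genes, and 3 fell and 1 rose at 48 h, beside 6.49% and 4.52%.

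Type I collagen, the main fibril-former of skin, bone and tendon, is built from the products of Col1a1 and Col1a2, and these 2 genes behaved differently between the lines. In APC-intact cells Col1a1 stood at 674, 596 and 685 CPM untreated, 600.2, 634 and 574 CPM after 24 h and 556, 588 and 548 CPM after 48 h. APC-deleted cells held Col1a1 at 1242, 1172 and 1248 CPM untreated, 1059.8, 1074 and 1092 CPM after 24 h and 1044, 1148 and 1065 CPM after 48 h. Every APC-deleted library exceeded every APC-intact one, and within each line the 48 h libraries lay below all untreated ones. Col1a1 (ENSMUSG00000001506, chr11:94936224-94953042 on mm10) was higher by 1.87-fold (95% interval 1.72 to 2.04) in untreated APC-deleted cells, with a log2 fold change of 0.91 ± 0.058 (SE, n = 3 per group, edgeR adjusted p = 2.55e-10). At 48 h its ratio was 1.92-fold (95% interval 1.77 to 2.09) and at 24 h, across runs, 1.78-fold (95% interval 1.64 to 1.94). With doxycycline Col1a1 fell by 0.21 on the log2 scale at 48 h in APC-intact cells (adjusted p = 0.0234), a call that was lost when any of 4 libraries was left out (adjusted p up to 0.129). In the other 3 comparisons the estimates were -0.11 ± 0.057 for APC-intact cells at 24 h and -0.18 ± 0.057 and -0.17 ± 0.057 in APC-deleted cells (adjusted p = 0.289, 0.0656 and 0.0622).

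In APC-intact cells Col1a2 stood at 982, 900.4 and 949 CPM untreated, 783, 819 and 798 CPM after 24 h and 798, 799 and 799 CPM after 48 h. APC-deleted cells held Col1a2 at 948, 888 and 947 CPM untreated, 744, 739 and 768 CPM after 24 h and 786, 774 and 796 CPM after 48 h. All treated libraries lay below all untreated ones in each line, and the untreated lines overlapped. The ratio of the lines untreated was 0.983 (95% interval 0.922 to 1.05) and at 48 h 0.983 (95% interval 0.922 to 1.05), so no difference was called (edgeR adjusted p = 0.738 and 0.721). With treatment Col1a2 fell, by log2 fold changes of -0.24 ± 0.044 and -0.24 ± 0.044 after 24 and 48 h in APC-intact cells, and -0.31 ± 0.044 and -0.24 ± 0.044 in APC-deleted cells (SE, n = 3 per group, edgeR adjusted p = 0.00243, 0.00132, 2.86e-04 and 0.00149). Fitted on those 6 libraries alone, the 24 h call in APC-intact cells was lost (adjusted p = 0.1001).

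Type III collagen, a homotrimer of the Col3a1 product that mixes with type I in distensible tissue, had the largest fall among the fibrillar genes called lower in each of the 4 comparisons with untreated cells. In APC-intact cells Col3a1 stood at 1088, 1064 and 1027 CPM untreated, 676, 766 and 749.9 CPM after 24 h and 648, 667 and 664 CPM after 48 h. APC-deleted cells held Col3a1 at 1455, 1169 and 1325 CPM untreated, 855, 841 and 842 CPM after 24 h and 784, 777 and 794 CPM after 48 h. In both lines the treated libraries sat well below the untreated ones with no overlap, and the untreated APC-deleted libraries were the highest of all. Col3a1 (ENSMUSG00000026043, chr1:45311538-45349706) changed by log2 fold changes of -0.54 ± 0.063 and -0.68 ± 0.063 after 24 and 48 h in APC-intact cells, and -0.64 ± 0.063 and -0.75 ± 0.063 in APC-deleted cells (SE, n = 3 per group, edgeR adjusted p = 3.37e-05, 4.45e-07, 4.24e-06 and 4.69e-07). At 48 h that is 1.61-fold (95% interval 1.47 to 1.76) lower in APC-intact and 1.68-fold (95% interval 1.53 to 1.84) lower in APC-deleted cells. At 24 h in APC-intact cells, within 1 run, it was 1.45-fold (95% interval 1.33 to 1.59) lower. Between the lines Col3a1 was 1.24-fold (95% interval 1.13 to 1.36) higher untreated and 1.19-fold (95% interval 1.09 to 1.30) higher at 48 h in APC-deleted cells (adjusted p = 7.87e-04 and 0.00372). The call at 24 h (adjusted p = 0.0132) was lost without APC-intact 24 h replicate 1 or APC-deleted 24 h replicate 1 (adjusted p up to 0.0740).

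Type V collagen nucleates fibrils and limits their width, and its 3 chain genes took 3 different courses. In APC-intact cells Col5a1 stood at 313, 282 and 310.0 CPM untreated, 303, 326 and 309.6 CPM after 24 h and 295, 291 and 286 CPM after 48 h. APC-deleted cells held Col5a1 at 439, 389.6 and 407 CPM untreated, 429, 406 and 421 CPM after 24 h and 392, 400.3 and 410.4 CPM after 48 h. The lines were fully apart, and within each line both treated groups overlapped the untreated group. In APC-intact cells all 24 h libraries lay above all 48 h ones. Col5a1 was 1.37-fold (95% interval 1.27 to 1.47) higher in untreated APC-deleted cells and 1.38-fold (95% interval 1.28 to 1.49) higher at 48 h (edgeR adjusted p = 1.75e-06 and 9.99e-07). Its 4 treatment estimates ran from -0.052 ± 0.052 to 0.053 ± 0.052 on the log2 scale and none was called.

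In APC-intact cells Col5a2 stood at 667, 645 and 665 CPM untreated, 535, 581 and 611 CPM after 24 h and 608, 602 and 601 CPM after 48 h. APC-deleted cells held Col5a2 at 696, 693 and 731 CPM untreated, 654, 663 and 685 CPM after 24 h and 676, 663 and 702 CPM after 48 h. The 2 lowest values came from APC-intact cells at 24 h, and the APC-deleted libraries lay above the APC-intact ones at each time. Col5a2, whose product pairs with that of Col5a1, was 1.13-fold (95% interval 1.05 to 1.21) higher in APC-deleted cells at 48 h (edgeR adjusted p = 0.00858), with an uncalled ratio of 1.07 (95% interval 1.00 to 1.15) untreated. It fell by 1.15-fold (95% interval 1.07 to 1.23) at 24 h in APC-intact cells (adjusted p = 0.0203), a call lost without APC-intact 24 h replicate 1, without untreated replicate 1 or 3, with no filter, and in a fit of those groups alone (adjusted p up to 0.199).

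In APC-intact cells Col5a3 stood at 41.6, 38.0 and 42.5 CPM untreated, 43.5, 49.8 and 45.8 CPM after 24 h and 32.1, 30.9 and 30.2 CPM after 48 h. APC-deleted cells held Col5a3 at 22.8, 21.2 and 20.6 CPM untreated, 28.3, 27.4 and 24.9 CPM after 24 h and 18.1, 18.6 and 19.1 CPM after 48 h. In each line the 24 h libraries were the highest and the 48 h libraries the lowest, with no overlap between any of the 3 conditions. Col5a3, which encodes the remaining type V chain, was 1.89-fold (95% interval 1.72 to 2.07) lower in untreated APC-deleted cells and 1.67-fold (95% interval 1.52 to 1.83) lower at 48 h (edgeR adjusted p = 1.01e-09 and 2.62e-08). Its treatment estimates on the log2 scale were 0.19 ± 0.063 and -0.39 ± 0.063 after 24 and 48 h in APC-intact cells, and 0.32 ± 0.064 and -0.21 ± 0.065 in APC-deleted cells (SE, n = 3 per group, adjusted p = 0.0892, 4.04e-04, 0.00450 and 0.0418). Between 24 and 48 h in APC-deleted cells, within 1 run, Col5a3 fell by 1.44-fold (95% interval 1.32 to 1.59) (adjusted p = 9.98e-05), the 1 member called in that comparison, where 0.446% of all tested genes fell and 0.0733% rose, 0.520% in all. Without APC-deleted 24 h replicate 2, or without APC-deleted 48 h replicate 2, Col18a1 was called as well. The 48 h fall in APC-deleted cells was lost in a fit of those groups alone and without any of 4 libraries (adjusted p up to 0.171).

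In APC-intact cells Col11a2 stood at 17.96, 17.3 and 19.96 CPM untreated, 19.0, 23.7 and 21.1 CPM after 24 h and 25.2, 21.6 and 20.1 CPM after 48 h. APC-deleted cells held Col11a2 at 14.00, 12.7 and 16.2 CPM untreated, 19.6, 17.9 and 20.5 CPM after 24 h and 16.5, 23.4 and 19.7 CPM after 48 h. Untreated APC-deleted libraries held the lowest values. Col11a2, a chain of type XI collagen best known from cartilage, rose by 1.35-fold (95% interval 1.13 to 1.61) at 24 h and 1.39-fold (95% interval 1.17 to 1.65) at 48 h in APC-deleted cells (edgeR adjusted p = 0.0390 and 0.0160) and was 1.29-fold (95% interval 1.08 to 1.53) lower there untreated (adjusted p = 0.0311). All 3 calls were lost when single libraries were left out (adjusted p up to 0.177, 0.0944 and 0.172). In APC-intact cells its estimates were 0.21 ± 0.12 and 0.28 ± 0.12, not called. The 5 cartilage markers listed beside it summed to 62.8 to 91.2 CPM per library, and 1 of the 5, Sox9, reached 1 CPM in the group means. No other of these markers was tested. Col24a1, the last tested fibrillar gene, averaged 0.990 ± 0.133 CPM in untreated APC-intact and 0.417 ± 0.154 CPM in APC-deleted cells at 48 h, the highest and lowest group. It was called in 1 comparison, 1.99-fold (95% interval 1.33 to 2.98) lower in APC-deleted cells at 48 h (adjusted p = 0.00842).

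Of the 5 tested network genes, 2 were higher and none lower in untreated APC-deleted cells, and 3 were higher at 48 h, where 13.4% and 17.8% of all tested genes were higher. Col8a1 was the 1 that fell with treatment, in each comparison, beside falls of 4.25% and 7.54% of all tested genes in APC-intact and 3.77% and 6.49% in APC-deleted cells. Type IV collagen of basement membranes is mostly made of Col4a1 and Col4a2 chains, and Col4a1 was called in no comparison. In APC-intact cells Col4a1 stood at 653, 604 and 659.7 CPM untreated, 608, 654 and 658 CPM after 24 h and 657, 615 and 635 CPM after 48 h. APC-deleted cells held Col4a1 at 636, 610.2 and 625 CPM untreated, 673, 651 and 678 CPM after 24 h and 639, 639 and 668 CPM after 48 h. All 18 libraries thus fell between 604 and 678 CPM. Its ratios between the lines were 0.977 (95% interval 0.911 to 1.05) untreated and 1.02 (95% interval 0.952 to 1.09) at 48 h. Against untreated cells the ratios were 1.00 (95% interval 0.935 to 1.07) and 0.995 (95% interval 0.928 to 1.07) in APC-intact cells and 1.07 (95% interval 0.998 to 1.15) and 1.04 (95% interval 0.970 to 1.11) in APC-deleted cells.

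In APC-intact cells Col4a2 stood at 453, 385 and 440.1 CPM untreated, 384, 427 and 411 CPM after 24 h and 408, 382 and 393 CPM after 48 h. APC-deleted cells held Col4a2 at 476, 455 and 484 CPM untreated, 477, 468 and 495 CPM after 24 h and 463, 479 and 483 CPM after 48 h. The APC-deleted libraries lay above the APC-intact ones at each time, with no overlap. Col4a2 was 1.21-fold (95% interval 1.11 to 1.31) higher at 48 h (edgeR adjusted p = 0.00110), with an uncalled ratio of 1.11 (95% interval 1.02 to 1.20) untreated. Its treatment estimates ran from -0.11 ± 0.058 to 0.026 ± 0.058 and none was called. These 2 genes lie head to head on chromosome 8, Col4a1 at chr8:11198423-11312826 on the minus strand and Col4a2 at chr8:11312805-11449287 on the plus strand, so that 22 bases overlap. Whether the counting used strand is not given in the sources used here.

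In APC-intact cells Col4a5 stood at 116, 107 and 113 CPM untreated, 92.4, 97.4 and 110.4 CPM after 24 h and 109, 103 and 113 CPM after 48 h. APC-deleted cells held Col4a5 at 171, 159.6 and 158 CPM untreated, 163, 151 and 159 CPM after 24 h and 168, 145 and 176 CPM after 48 h. Each APC-deleted library exceeded each APC-intact one. Col4a5, the chain joined with Col4a6 in smooth muscle basement membrane, was 1.45-fold (95% interval 1.31 to 1.61) higher in untreated APC-deleted cells and 1.51-fold (95% interval 1.36 to 1.67) higher at 48 h (edgeR adjusted p = 8.57e-06 and 2.27e-06). None of its 4 treatment estimates, from -0.16 ± 0.071 to 0.0028 ± 0.071, was called. Its head-to-head neighbour Col4a6, 1308 bases away on the X chromosome, was under the filter with 87 counts in all. Likewise Col4a3 and Col4a4, 71 bases apart on chromosome 1, were both under the filter.

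Type VIII collagen is a short-chain network collagen of vessel walls and corneal endothelium, and in these cells it was represented by Col8a1 alone. In APC-intact cells Col8a1 stood at 257, 249.9 and 249 CPM untreated, 192, 176 and 194 CPM after 24 h and 169, 165 and 170.0 CPM after 48 h. APC-deleted cells held Col8a1 at 359.7, 369 and 377 CPM untreated, 323, 294 and 311 CPM after 24 h and 335, 268 and 306 CPM after 48 h. Treated libraries lay below untreated ones in both lines, and every APC-deleted library lay above every APC-intact library. Col8a1 (ENSMUSG00000068196, chr16:57624258-57754737) was 1.46-fold (95% interval 1.34 to 1.61) higher in untreated APC-deleted cells and 1.80-fold (95% interval 1.64 to 1.98) higher at 48 h (edgeR adjusted p = 1.42e-06 and 2.82e-09). With treatment it fell, by log2 fold changes of -0.43 ± 0.063 and -0.58 ± 0.063 after 24 and 48 h in APC-intact cells, and -0.25 ± 0.063 and -0.28 ± 0.063 in APC-deleted cells (SE, n = 3 per group, adjusted p = 3.06e-04, 3.81e-06, 0.0209 and 0.00647). In APC-deleted cells the 24 h call was lost without any of 4 libraries (adjusted p up to 0.0985) and the 48 h call in a fit of those groups alone (0.0978). The last tested network gene, Col10a1 of hypertrophic cartilage, averaged at most 0.164 CPM in any group and was called nowhere. It lies within Nt5dc1 on the opposite strand, so its few counts are uncertain.

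**Figure D4:**
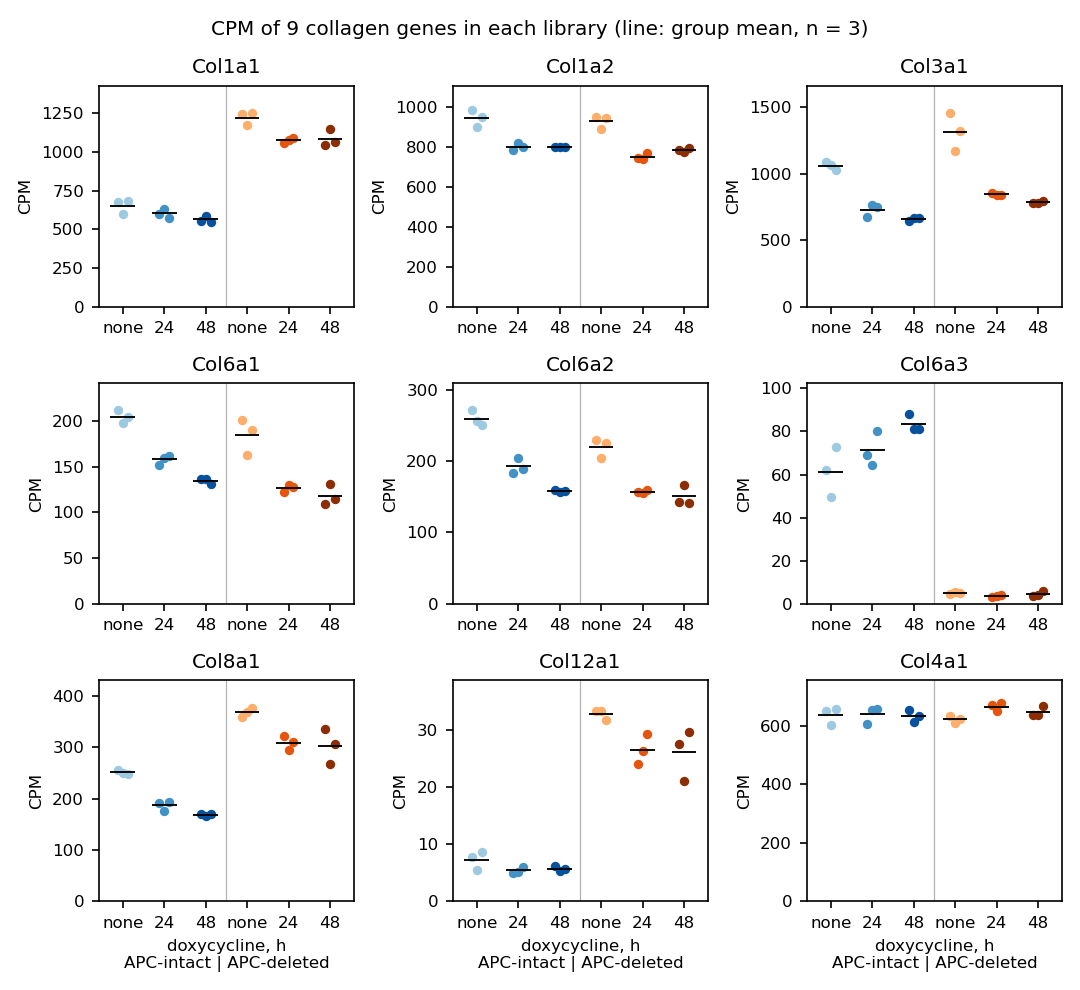
CPM (linear axes from 0) of 9 collagen genes in each library, by line and hours of doxycycline, with 1 point per library and a bar at the group mean (n = 3). Col6a3 stays under 6 CPM in all APC-deleted libraries, Col12a1 shows the reverse, Col3a1, Col6a1, Col6a2 and Col8a1 step down with treatment in both lines, and Col4a1 stays between 604 and 678 CPM.

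Of the 4 tested beaded-filament genes none was higher in APC-deleted cells, and 2 were lower untreated and 2 at 48 h, where 13.8% and 16.8% of all tested genes were lower. At 24 h, across runs, 3 were lower, beside 15.1% of all tested genes. Type VI collagen, the beaded filament found around most mesenchymal cells, is classically a trimer of the Col6a1, Col6a2 and Col6a3 chains. Col6a1 and Col6a2 were called lower with treatment in all 4 comparisons, and Col6a3 in none. Between the lines the widest gap of the 3 was in Col6a3. At 24 h, across runs, Col6a1 and Col6a2 were also lower in APC-deleted cells, by log2 fold changes of -0.32 and -0.29 (edgeR adjusted p = 0.00142 and 0.00121). No alternative ended either call. In APC-intact cells Col6a1 stood at 212, 198 and 204 CPM untreated, 152, 159.6 and 162 CPM after 24 h and 136, 137 and 131 CPM after 48 h. APC-deleted cells held Col6a1 at 201, 162 and 189.7 CPM untreated, 122, 129.7 and 128 CPM after 24 h and 109, 130.5 and 115 CPM after 48 h. No treated library reached an untreated one in either line. Col6a1 (ENSMUSG00000001119, chr10:76708792-76726168) changed by log2 fold changes of -0.38 ± 0.069 and -0.60 ± 0.069 after 24 and 48 h in APC-intact cells, and -0.54 ± 0.069 and -0.64 ± 0.069 in APC-deleted cells (SE, n = 3 per group, edgeR adjusted p = 0.00234, 7.23e-06, 7.65e-05 and 7.04e-06). The 24 h fall in APC-intact cells, within 1 run, was 1.30-fold (95% interval 1.17 to 1.43). Between the lines Col6a1 was 1.14-fold (95% interval 1.03 to 1.26) lower in APC-deleted cells at 48 h (adjusted p = 0.0410), a call lost with other scaling factors, in a fit of those groups alone and without any of 5 libraries (adjusted p up to 0.193), and its ratio untreated was 0.901 (95% interval 0.815 to 0.995), not called.

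In APC-intact cells Col6a2 stood at 271, 256 and 249.9 CPM untreated, 184, 204 and 189 CPM after 24 h and 159, 157 and 159 CPM after 48 h. APC-deleted cells held Col6a2 at 229.9, 203 and 224 CPM untreated, 157, 155 and 159 CPM after 24 h and 143, 166 and 142 CPM after 48 h. Here too the treated and untreated libraries were fully apart, and APC-deleted 48 h replicate 2, which stood apart in the component analysis, was the highest of its group for both chains. Col6a2 (ENSMUSG00000020241, chr10:76595762-76623630) fell by log2 fold changes of -0.43 ± 0.062 and -0.71 ± 0.062 after 24 and 48 h in APC-intact cells, and -0.48 ± 0.062 and -0.55 ± 0.062 in APC-deleted cells (SE, n = 3 per group, edgeR adjusted p = 2.64e-04, 2.34e-07, 8.40e-05 and 1.39e-05). In untreated APC-deleted cells it was 1.18-fold (95% interval 1.08 to 1.29) lower (adjusted p = 0.00636), a call lost without APC-intact untreated replicate 1 or APC-deleted untreated replicate 2 (adjusted p up to 0.0788), and at 48 h its ratio was 0.950 (95% interval 0.868 to 1.04), not called.

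In APC-intact cells Col6a3 stood at 61.9, 49.4 and 72.8 CPM untreated, 69.0, 64.4 and 80.2 CPM after 24 h and 87.9, 81.1 and 81.1 CPM after 48 h. APC-deleted cells held Col6a3 at 4.55, 5.24 and 4.78 CPM untreated, 3.00, 3.56 and 4.17 CPM after 24 h and 3.58, 3.86 and 5.998 CPM after 48 h. The lowest APC-intact library lay more than 8-fold above the highest APC-deleted one. Col6a3 (ENSMUSG00000048126, chr1:90765923-90843971) was 12.6-fold (95% interval 9.62 to 16.6) lower in untreated APC-deleted cells, with a log2 fold change of -3.66 ± 0.18 (SE, n = 3 per group, edgeR adjusted p = 6.54e-10). At 48 h it was 18.5-fold (95% interval 14.00 to 24.5) lower and at 24 h, across runs, 19.9-fold (95% interval 15.0 to 26.4) lower. The 3 groups of APC-deleted libraries still held 1358, 1100 and 1170 Col6a3 counts in all, so the gene was read well above the limit of 3 counts a library. None of the 4 treatment estimates was called: they were 0.21 ± 0.16 and 0.44 ± 0.16 after 24 and 48 h in APC-intact cells, and -0.44 ± 0.19 and -0.11 ± 0.19 in APC-deleted cells (adjusted p = 0.496, 0.0849, 0.218 and 0.767). The 48 h rise in APC-intact cells was called with a replicate block and without APC-intact untreated replicate 3. The 24 h fall in APC-deleted cells was called in a fit of those groups alone. Col6a4, a further type VI chain gene, averaged 0.346 to 0.467 CPM and was called in no comparison.

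Of the 8 other tested collagens 2 were higher and 2 lower in APC-deleted cells, both untreated and at 48 h, beside 13.4% higher and 13.8% lower of all tested genes untreated and 17.8% and 16.8% at 48 h. Among them the fibril-associated ones sit on the surface of collagen fibrils. In APC-intact cells Col12a1 stood at 7.69, 5.36 and 8.52 CPM untreated, 4.98, 5.05 and 6.05 CPM after 24 h and 6.10, 5.27 and 5.67 CPM after 48 h. APC-deleted cells held Col12a1 at 33.3, 33.5 and 31.8 CPM untreated, 24.2, 26.4 and 29.4 CPM after 24 h and 27.6, 21.2 and 29.8 CPM after 48 h. All APC-deleted libraries were more than 2-fold above the highest APC-intact library. Col12a1 (ENSMUSG00000032332, chr9:79598991-79718831), which bridges type I fibrils, was 4.57-fold (95% interval 3.70 to 5.64) higher in untreated APC-deleted cells and 4.61-fold (95% interval 3.72 to 5.72) higher at 48 h (edgeR adjusted p = 2.17e-09 and 2.27e-09). All 4 treatment estimates were below 0, from -0.42 ± 0.15 to -0.30 ± 0.13, and none was called (adjusted p 0.119 to 0.218).

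In APC-intact cells Col16a1 stood at 15.5, 15.4 and 15.4 CPM untreated, 11.1, 15.3 and 13.8 CPM after 24 h and 13.8, 12.0 and 13.3 CPM after 48 h. APC-deleted cells held Col16a1 at 13.7, 13.5 and 16.4 CPM untreated, 13.6, 13.6 and 15.7 CPM after 24 h and 13.8, 14.2 and 14.04 CPM after 48 h. The groups ran together, with APC-intact 24 h replicate 1, a library that stood apart, the lowest of all. Col16a1, another fibril-associated collagen, was called in no comparison, and its ratios between the lines were 0.940 (95% interval 0.818 to 1.08) untreated and 1.08 (95% interval 0.937 to 1.24) at 48 h. In APC-intact cells Col20a1 stood at 3.95, 4.02 and 4.52 CPM untreated, 5.81, 5.81 and 6.06 CPM after 24 h and 6.16, 5.81 and 5.68 CPM after 48 h. APC-deleted cells held Col20a1 at 2.85, 2.57 and 2.94 CPM untreated, 3.73, 4.01 and 4.60 CPM after 24 h and 3.38, 5.75 and 4.14 CPM after 48 h. In each line all treated libraries lay above all untreated ones. Col20a1, a little studied member of the same class, rose by 1.42-fold (95% interval 1.16 to 1.73) and 1.41-fold (95% interval 1.16 to 1.72) in APC-intact and 1.48-fold (95% interval 1.21 to 1.81) and 1.58-fold (95% interval 1.29 to 1.94) in APC-deleted cells (edgeR adjusted p = 0.0339, 0.0227, 0.0206 and 0.00440). Leaving out single libraries ended the call in 3 of these 4 comparisons, and a fit of the groups alone ended that at 48 h in APC-deleted cells (adjusted p up to 0.144). It was 1.49-fold (95% interval 1.22 to 1.83) lower in untreated APC-deleted cells (adjusted p = 0.00402), and at 48 h its call (adjusted p = 0.0230) was lost without any of 4 libraries and in a fit of those groups alone (adjusted p up to 0.147). Col9a3 was called in 1 comparison, 1.64-fold (95% interval 1.15 to 2.34) lower in APC-deleted cells at 24 h, across runs (adjusted p = 0.0311), a call lost without any of 4 libraries. Col14a1 and the transmembrane Col17a1 of hemidesmosomes averaged at most 0.419 and 0.185 CPM and were called nowhere.

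Type VII collagen forms the anchoring fibrils that tie basement membrane to the tissue beneath it. In APC-intact cells Col7a1 stood at 31.2, 30.4 and 38.3 CPM untreated, 34.7, 41.4 and 40.3 CPM after 24 h and 45.8, 39.2 and 36.5 CPM after 48 h. APC-deleted cells held Col7a1 at 14.6, 12.4 and 13.9 CPM untreated, 14.3, 14.1 and 15.8 CPM after 24 h and 13.9, 19.5 and 17.3 CPM after 48 h. Every APC-intact library exceeded every APC-deleted one. Col7a1 (ENSMUSG00000025650, chr9:108953586-108984875) was 2.44-fold (95% interval 2.05 to 2.90) lower in untreated APC-deleted cells and 2.39-fold (95% interval 2.01 to 2.84) lower at 48 h (edgeR adjusted p = 1.59e-07 and 1.70e-07). Its treatment estimates were 0.22 ± 0.12 and 0.28 ± 0.12 after 24 and 48 h in APC-intact cells, and 0.11 ± 0.12 and 0.31 ± 0.12 in APC-deleted cells, not called.

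Col18a1 encodes a basement membrane collagen with heparan sulphate chains, whose end fragment is endostatin. In APC-intact cells Col18a1 stood at 123, 111 and 117 CPM untreated, 118, 129 and 116 CPM after 24 h and 99.4, 91.1 and 99.6 CPM after 48 h. APC-deleted cells held Col18a1 at 137, 128 and 133 CPM untreated, 157, 142 and 157 CPM after 24 h and 124, 131 and 128 CPM after 48 h. The 24 h APC-deleted libraries were the highest and the 48 h APC-intact ones the lowest. Col18a1 was 1.13-fold (95% interval 1.04 to 1.23) higher in untreated APC-deleted cells and 1.32-fold (95% interval 1.21 to 1.43) higher at 48 h (edgeR adjusted p = 0.0231 and 2.26e-05), and the untreated call was lost without any of 4 libraries (adjusted p up to 0.126). It fell by 1.21-fold (95% interval 1.11 to 1.31) at 48 h in APC-intact cells (adjusted p = 0.00439) and rose by 1.15-fold (95% interval 1.05 to 1.25) at 24 h in APC-deleted cells (adjusted p = 0.0494), a rise lost with other scaling factors, with no filter and without any of 5 libraries (adjusted p up to 0.212). Part of Col18a1 overlaps Slc19a1 on the opposite strand. Slc19a1 itself was lower in untreated APC-deleted cells, with a log2 fold change of -0.22 ± 0.062 (adjusted p = 0.0127), and reads from the 2 genes cannot be told apart without strand.

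For chains of the same type, the ratio of their transcripts per kilobase was taken in each library, as a description. Col1a1 per Col1a2 was 1.27, 1.23 and 1.34 in untreated APC-intact libraries and 2.43, 2.45 and 2.45 in untreated APC-deleted libraries. At 48 h the means were 1.31 ± 0.049 and 2.57 ± 0.16 (SD, n = 3). The level of this ratio rests on the deposited exon lengths, 6511 bases for Col1a1 and 12088 for Col1a2. Col6a3 per Col6a1 was 0.106, 0.0909 and 0.130 in untreated, 0.165, 0.147 and 0.181 in 24 h and 0.235, 0.216 and 0.226 in 48 h APC-intact libraries, with no overlap between conditions. In APC-deleted libraries it stayed between 0.00825 and 0.0191. Col6a2 per Col6a1 stayed between 0.599 and 0.683 in all 18 libraries, so these 2 transcripts kept nearly the same proportion throughout. Col5a3 per Col5a1 averaged 0.169 ± 0.0026, 0.185 ± 0.0057 and 0.134 ± 0.0020 in APC-intact cells (untreated, 24 h, 48 h) and 0.0654 ± 0.0024, 0.0802 ± 0.0055 and 0.0580 ± 0.00022 in APC-deleted cells. Col4a1 per Col4a2 averaged 1.46 to 1.57 in APC-intact and 1.29 to 1.35 in APC-deleted groups.

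**Figure D5:**
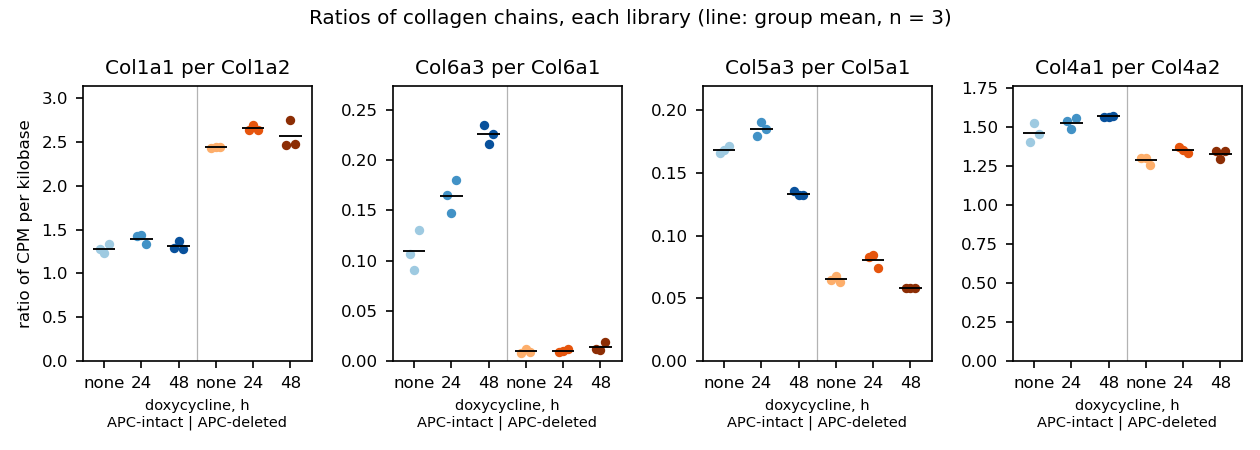
Ratio of chain transcripts, each as CPM per kilobase of exon length, in each library by line and hours of doxycycline, with a bar at the group mean (n = 3, axes from 0). Col1a1 per Col1a2 lies at 1.23 to 1.44 in APC-intact and 2.43 to 2.75 in APC-deleted libraries, and Col6a3 per Col6a1 has APC-intact means of 0.109 untreated and 0.226 at 48 h and stays under 0.02 in the other line.

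Whether the 48 h response differed between the lines was tested as an interaction, in which an additive effect of run cancels. No member was called by DESeq2, nor by edgeR, where 0.0267% of all tested genes were (0.0200% higher and 0.00666% lower). An unadjusted p under 0.05 by edgeR was found for 3 members. The share of all tested genes at that threshold was not counted, so this count says nothing particular to collagens. The 3 members were Col8a1, with a difference (APC-deleted minus APC-intact) of 0.30 ± 0.089 on the log2 scale (unadjusted p = 0.00337 by edgeR, adjusted p = 0.436), Col18a1 at 0.21 ± 0.082 (adjusted p = 0.601) and Col6a3 at -0.55 ± 0.25 (adjusted p = 0.699). For Col3a1 the difference was -0.062 ± 0.088, for Col1a2 0.00074 ± 0.063 and for Col6a1 -0.037 ± 0.098, with 95% intervals of -0.25 to 0.12, -0.13 to 0.13 and -0.24 to 0.17.

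On the genome Col3a1 and Col5a2 face each other tail to tail on chromosome 1 with 24614 bases between them. Col6a2 and Col6a1 follow one another on the minus strand of chromosome 10 with 85161 bases between them, and Col18a1 lies 326009 bases further along.

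The genes that make, process and bind collagen were read from 3 lists beside the members. Of 21 genes for hydroxylation, folding and secretion 18 were tested. Serpinh1, the collagen chaperone of the endoplasmic reticulum, averaged 1263 ± 44.4 CPM in untreated APC-intact and 1218 ± 18.8 CPM in untreated APC-deleted cells (SD, n = 3), with no call between the lines. It fell with treatment by log2 fold changes of -0.23 ± 0.059 and -0.32 ± 0.059 in APC-intact cells and -0.21 ± 0.059 at 48 h in APC-deleted cells, and its 24 h estimate there was -0.17 ± 0.059 (edgeR adjusted p = 0.0242, 0.00157, 0.0287 and 0.0941). Creb3l1, a transcription factor of the secretory pathway that acts on collagen genes, fell in all 4 comparisons, from 1.80 ± 0.1999 to 1.20 ± 0.0553 CPM at 48 h in APC-intact and from 3.14 ± 0.494 to 2.24 ± 0.192 CPM in APC-deleted cells. It was also higher in APC-deleted cells untreated, by 0.80 ± 0.13 on the log2 scale (adjusted p = 1.52e-04). In untreated APC-deleted cells 4 of the 18 were higher (Creb3l1, the hydroxylase complex member Leprel4, the galactosyltransferase Colgalt1 and the prolyl 3-hydroxylase Lepre1) and Leprel1 was lower. At 48 h 4 were higher (Creb3l1, Colgalt1, Lepre1 and the chaperone Fkbp10) and 2 lower (the hydroxylases P4ha1 and Plod2). Of all tested genes 13.4% were higher and 13.8% lower untreated, and 17.8% and 16.8% at 48 h. P4ha1, a catalytic subunit of prolyl 4-hydroxylase, was at -0.14 ± 0.052 untreated (adjusted p = 0.0584) and -0.31 ± 0.052 at 48 h (adjusted p = 1.28e-04). With treatment no other gene of this list fell apart from Fkbp10 at 48 h in APC-intact cells, and Leprel1 rose at 48 h in APC-deleted cells.

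Of 13 genes for procollagen processing and crosslinking 7 were tested, and the lysyl oxidase relative Loxl3 fell in all 4 comparisons with untreated cells. Loxl3 averaged 27.8 ± 1.01 CPM in untreated APC-intact cells and 20.3 ± 0.737 and 20.4 ± 1.20 CPM at 24 and 48 h, and 31.8 ± 1.44, 21.9 ± 0.164 and 27.0 ± 3.58 CPM in APC-deleted cells (SD, n = 3). The log2 fold changes were -0.45 ± 0.074 and -0.44 ± 0.073 after 24 and 48 h in APC-intact cells, and -0.54 ± 0.073 and -0.24 ± 0.073 in APC-deleted cells (edgeR adjusted p = 7.52e-04, 4.74e-04, 1.45e-04 and 0.0410). Loxl4 fell at 24 h in APC-intact cells and no other gene of the list was called with treatment. Lox itself stayed at 0.131 to 0.432 CPM and was called in no comparison. Bmp1, the protease that trims the end of fibrillar procollagen, was higher in APC-deleted cells untreated by 0.25 ± 0.044 and at 48 h by 0.30 ± 0.044 on the log2 scale, while Loxl4 was lower by -0.63 ± 0.066 and -0.61 ± 0.066. Pcolce, an enhancer of that protease, was also lower untreated (-0.26 ± 0.061), and Loxl3 and Adamts14 were also higher at 48 h.

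Of 11 collagen receptors and uptake genes 9 were tested. Mrc2, which takes up collagen for breakdown, was higher in APC-deleted cells, at 500 ± 30.7 against 309 ± 17.6 CPM untreated (SD, n = 3), by 0.70 ± 0.063 on the log2 scale (edgeR adjusted p = 4.97e-08). The integrin chain Itga1 was higher by 0.91 ± 0.11 untreated, Ddr1 and Itga11 were also higher and Itga10 was lower. At 48 h Mrc2, Itga1 and Itga11 were higher and Itga10 lower. With treatment 1 gene of this list was called, Mrc2, which fell at 24 h in APC-deleted cells by -0.28 ± 0.063 (adjusted p = 0.00960), where 3.77% of all tested genes fell.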

How the data were processed

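Bulk RNA sequencing of 18 libraries was deposited as 1 table per library, with a read count, an exon length and an RPKM value for each gene. Per the submitters' processing notes, the authors used STAR, HTSeq and the mm10 mouse genome. Tool versions, the annotation release and the strand setting are not given in the sources used here. The counts are raw whole-number counts as deposited. The RPKM values that the authors deposited were not used, since they cannot enter a count test. Rows that name no gene held 22.9% to 25.5% of each library's counts and were left out.

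Groups came from the sample titles. Members and gene lists were chosen with earlier results of these data known. Counts were fitted with edgeR 4.0.16 in R 4.3.3 (filterByExpr by group, TMM factors, robust quasi-likelihood fit, 1 coefficient for each of 6 groups), which tested 15006 genes in 9 comparisons. P-values were adjusted by Benjamini-Hochberg over those genes, with a threshold of 0.05. The fitting script was tested on simulated data. The common biological coefficient of variation was 8.33%, and replicate libraries differed by more than counting error (chi-square per degree of freedom 7.47 to 75.2), so none was counted as a duplicate. Depth was 71970499 to 111948430 gene counts, with a median of 93632232. CPM values were counts over the library total times its TMM factor, divided by exon length where genes were compared. Floors and counting limits cover counting error only.

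Values in every library are given for members that reached 5 CPM in the mean of at least 1 group, other members are given by counts or ranges, and every called member is named. For lists, up to 4 genes per comparison were named by smallest adjusted p, with Serpinh1, Lox and P4ha1 always. Upstream windows were read from RefSeq on GRCm38.p6. Alternatives were DESeq2 1.42.0, median-ratio factors, no filter, a replicate block, only the groups compared, both libraries that stood apart left out, and each library left out in turn. Replicate numbers did not pair the samples: of 30 pairs of same-numbered libraries, 1 had a correlation of deviations over 0.1 (range -0.088 to 0.116).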

Additional observations from a re-analysis of the deposited data

How the results depend on the processing

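No called collagen result changed direction under any alternative run. Counts of called members stayed within 1.5 times the count reported, with these exceptions. For 24 h against untreated APC-deleted cells, leaving out 1 library in turn gave 5 to 7 against 9. For 48 h against untreated APC-deleted cells, fitting only the groups compared gave 4 against 8, and leaving out 1 library gave 6 to 9. For 48 h against 24 h in APC-deleted cells, DESeq2 gave 2, no filter gave 2, leaving out both libraries that stood apart gave 2, and leaving out 1 library gave 1 to 2, against 1. Over libraries left out in turn the line comparisons gave 11 to 12 untreated, 14 to 16 at 24 h and 13 to 17 at 48 h, and APC-intact cells gave 5 to 7 at 24 h and 7 to 9 at 48 h. Median-ratio factors ended 2 calls, Col18a1 at 24 h in APC-deleted cells and Col6a1 between the lines at 48 h. The cause of these changes was not tested. With the replicate block the counts were 13, 16 and 15 between the lines, 7 and 10 at 24 and 48 h in APC-intact cells and 9 and 9 in APC-deleted cells, with 1 between 48 and 24 h and 0 for the difference of responses. The block ended no call and added 2, Col6a3 at 48 h in APC-intact cells (edgeR adjusted p = 0.0229) and Col12a1 at 48 h in APC-deleted cells (adjusted p = 0.0480). At this depth 19 of the 44 members were below the filter on low counts and went untested.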
